A study of Homo sapiens with 6 samples.

Results

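Distal Myc peaks whose summit lies on or near the letters of an AP-1 site were compared across 4 Myc ChIP-seq libraries of a triple-negative breast cancer line. A peak was taken when its summit was more than 3 kb from every transcription start site (TSS) of basic transcripts of any gene type and when TGACTCA or TGAGTCA, which are reverse complements of each other, lay within 50 bp of the summit. These distal AP-1 peaks numbered 3644 of 23694 distal peaks and of 62528 peaks in all. By library they were 183 of 1000 distal peaks in parental replicate 1, 558 of 2451 in parental replicate 2, 1682 of 10640 in TKO replicate 1 and 1221 of 9603 in TKO replicate 2.

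The study asked whether loss of TXNIP, the thioredoxin interacting protein, alters where Myc sits on the genome. Parental cells are MDA-MB-231 with TXNIP intact, and TKO cells are an MDA-MB-231 derivative whose TXNIP was knocked out with CRISPR/Cas9 in clones isolated from single cells, so the clone and the knockout cannot be told apart. Each cell line had 2 Myc libraries, made with an antibody to Myc from cells grown in the same medium, and 2 further samples of the series were input chromatin. The study describes the libraries of a cell line as biological replicates, and neither it nor the labels say whether they came from separate cultures. The lists give no read count per library.

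AP-1 is a dimer of basic leucine zipper proteins of the JUN and FOS families, which are made and activated after growth factor, cytokine and stress signals. It binds the letters above, mostly in enhancers far from genes, and it is abundant at the active enhancers of mesenchymal breast cancer cells such as MDA-MB-231. Myc binds with its partner MAX to the E-box CACGTG at many promoters, and it is also recovered at enhancers, where contact with other bound proteins can hold it without an E-box. The letters in a peak do not show which protein was bound there.

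For 10 strongly enriched sites, the summit base and 50 bases on either side of it are given to show what these peaks look like. All are on the plus strand of GRCh37 (hg19), with the AP-1 letters and any CACGTG in capitals, and each is named for the nearest protein-coding gene. The first 4 belong to sites with a peak in all 4 libraries, the next 4 to sites with a peak in both TKO lists and neither parental list, the next to a site with a peak in both parental lists and neither TKO list, and the last to a TKO site that also holds an E-box.
DCANP1, chr5:134773920-134774020: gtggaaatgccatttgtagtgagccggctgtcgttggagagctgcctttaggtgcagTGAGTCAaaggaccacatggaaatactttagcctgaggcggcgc
TIMP2, chr17:76858219-76858319: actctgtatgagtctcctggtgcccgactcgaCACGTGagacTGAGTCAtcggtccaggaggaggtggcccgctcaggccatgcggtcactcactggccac
EPHX1, chr1:226005532-226005632: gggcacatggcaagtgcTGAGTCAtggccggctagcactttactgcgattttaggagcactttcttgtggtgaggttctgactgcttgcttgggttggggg
CD58, chr1:117099419-117099519: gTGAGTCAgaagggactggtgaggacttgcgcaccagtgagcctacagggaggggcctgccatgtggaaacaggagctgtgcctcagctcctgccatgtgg
TBC1D22A, chr22:47525643-47525743: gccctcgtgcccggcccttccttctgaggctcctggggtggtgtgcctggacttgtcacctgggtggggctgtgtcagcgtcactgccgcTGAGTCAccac
AMOTL2, chr3:134146281-134146381: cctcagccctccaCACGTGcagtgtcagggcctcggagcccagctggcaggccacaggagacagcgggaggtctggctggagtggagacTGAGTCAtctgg
IL17REL, chr22:50466280-50466380: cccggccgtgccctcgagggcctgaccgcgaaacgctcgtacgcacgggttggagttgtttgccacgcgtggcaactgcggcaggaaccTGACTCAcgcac
UACA, chr15:70785210-70785310: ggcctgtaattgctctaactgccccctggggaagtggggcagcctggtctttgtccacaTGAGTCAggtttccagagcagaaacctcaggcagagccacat
DCBLD2, chr3:98827573-98827673: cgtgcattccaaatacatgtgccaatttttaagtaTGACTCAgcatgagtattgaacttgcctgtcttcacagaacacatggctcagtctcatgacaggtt
SIK1, chr21:44760778-44760878: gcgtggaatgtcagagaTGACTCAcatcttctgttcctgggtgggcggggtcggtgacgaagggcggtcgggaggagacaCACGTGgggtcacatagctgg

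The AP-1 letters were far more frequent at distal summits than beside them in every library. They lay within 50 bp of 18.3% of distal summits in parental replicate 1 (exact 95% confidence interval 15.9% to 20.8%), 22.8% in parental replicate 2 (21.1% to 24.5%), 15.8% in TKO replicate 1 (15.1% to 16.5%) and 12.7% in TKO replicate 2 (12.1% to 13.4%). Windows of the same length 1 kb to either side of the same summits held the letters in 1.80% to 2.15% of cases. The summit share was 9.15, 12.3, 8.33 and 5.96 times the mean of the shares 1 kb upstream and 1 kb downstream, in the same order of libraries. The summit window was tested against the window 1 kb downstream alone (exact McNemar test, two-sided, p = 8.51e-35, 1.16e-119, 3.07e-298 and 2.40e-184). ACTCAGT or ACTGAGT, the same letters in reverse order without complementing, served as a control word and were found at 1.57% to 2.08% of distal summits. Intervals and these tests cover counting error within a library, since peaks are not replicates.

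**Figure D1:**
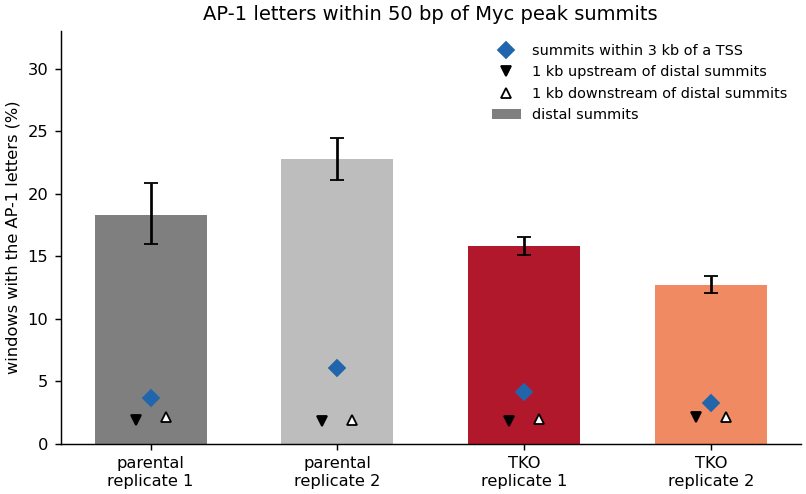
The share of windows with the AP-1 letters (%, y axis) is plotted for each library (x axis), with bars for distal summits, black lines for exact 95% confidence intervals, triangles for windows 1 kb upstream and downstream of the same summits, and diamonds for summits within 3 kb of a TSS. The bars stand between 12.7% and 22.8%, the diamonds between 3.28% and 6.03%, and the triangles near 2%.

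Peaks near promoters held the letters less often. Among summits within 3 kb of a TSS the share was 3.68%, 6.03%, 4.09% and 3.28% in parental replicates 1 and 2 and TKO replicates 1 and 2. Within 1 kb of a TSS it was 2.25% to 3.87%, above the 1.80% to 2.15% of windows beside distal summits, and between 1 and 3 kb it was 8.58% to 19.1%. The excess within 1 kb was largest in parental replicate 2, at 3.87% (interval 3.18% to 4.65%) against 1.80% and 1.92%. At 3 to 10, 10 to 30, 30 to 100 and over 100 kb the share was 15.4%, 15.5%, 17.1% and 16.8% in TKO replicate 1 and 20.1%, 25.3%, 22.2% and 26.7% in parental replicate 2. Intervals overlapped within each library. In parental replicate 2 they did so narrowly at 3 to 10 kb (17.5% to 22.9%) and 10 to 30 kb (22.5% to 28.2%). Differences between these distance classes were not tested. The nearest distal AP-1 peak in each library lay 3002 to 3034 bp from a TSS, and the farthest peak with the letters that was left out lay 2707 to 2999 bp away.

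**Figure D2:**
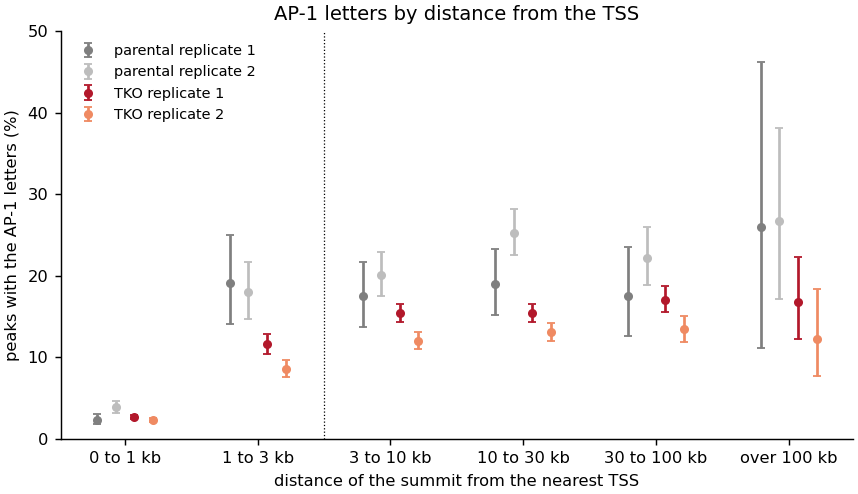
The share of peaks with the AP-1 letters (%, y axis) is plotted by distance of the summit from the nearest TSS (x axis, classes), with points for the 4 libraries, exact 95% confidence intervals, and a dotted line at 3 kb. The points lie between 2.25% and 3.87% within 1 kb and between 12% and 26.7% beyond 3 kb, and the intervals are widest over 100 kb, where the parental lists have 27 and 75 peaks.

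The AP-1 letters were spread over the width of the peak, whereas the E-box was concentrated at the summit. In TKO replicate 1, each 20-bp step held 35.2 AP-1 matches per 1000 distal peaks within 20 bp of the summit, 35.9 at 20 to 40 bp, 32.8 at 40 to 60 bp, 26.4 at 60 to 100 bp, 11.9 at 100 to 200 bp and 4.73 at 400 to 500 bp. The E-box in the same peaks fell from 23.2 within 20 bp to 18.1, 14, 8.32 and 4.41 over the next 4 distance classes. In TKO replicate 2 the AP-1 values were 28.8, 27.8 and 28.2 over the first 3 classes, and those of the E-box 18.8, 16.5 and 12.4. In parental replicate 1 the AP-1 letters gave 43.5, 35.0 and 52.5 and the E-box 61.5, 40.5 and 37, so that library had more E-box than AP-1 matches near the summit, and the other 3 had more AP-1 matches. Among distal AP-1 peaks, the median distance from the summit to the nearest AP-1 letters was 22 to 23 bp and 22% to 24% had them within 10 bp, while 6.06% to 6.56% held more than 1 site.

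**Figure D3:**
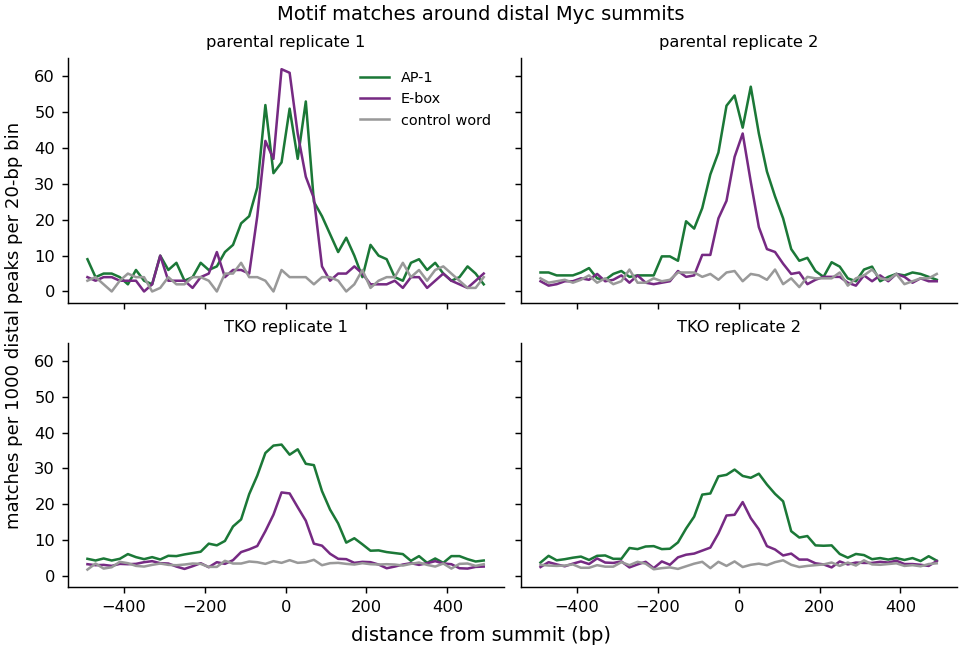
Matches per 1000 distal peaks in 20-bp bins (y axis) are plotted against distance from the summit in bp (x axis) for the AP-1 letters, the E-box and the control word, with a panel for each library. The AP-1 line forms a broad top over about 50 bp on either side, the E-box line a narrower one, and the control word stays near its level at the edges.

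The bases next to the 7 AP-1 letters differed between summits and the windows beside them. Read with TGACTCA on top, 11.8% of 1791 matches at TKO replicate 1 summits had a T just before or an A just after the letters, compared with 28.4% of 415 matches 1 kb to either side (Fisher's exact test, adjusted p = 1.87e-14). By the same exact test these shares were 9.58% of 1305 and 27.4% of 419 in TKO replicate 2 (adjusted p = 1.64e-16), in parental replicate 2 they were 12.1% of 596 and 22.6% of 93 (adjusted p = 0.0191), and in parental replicate 1 they were 13.3% of 195 and 23.3% of 43 (adjusted p = 0.158). The tests were Fisher's exact tests, two-sided, adjusted over 24 tests of 6 flanking patterns in 4 libraries by the Benjamini-Hochberg method, and these patterns were chosen after values were seen. A G just before the letters was more frequent at summits in both TKO libraries, at 38.1% against 28.4% in TKO replicate 1 (exact test, adjusted p = 4.42e-04) and 38.9% against 28.2% in TKO replicate 2 (adjusted p = 2.01e-04). In parental replicates 1 and 2 the shares were 37.4% against 25.6% and 38.3% against 26.9%, and neither passed (exact test, adjusted p = 0.203 and 0.0670).

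The TKO lists held more distal AP-1 peaks than the parental lists, but the lists themselves differed in length. The mean was 370.5 ± 265 (SD, n = 2 libraries) in parental cells and 1451.5 ± 326 in TKO, a ratio of 3.92, and both TKO values were above both parental values (exact permutation test, two-sided, p = 0.333, the smallest possible with 2 libraries against 2). The ratio was 2.60 without parental replicate 1 and 7.93 without parental replicate 2. Distal peaks as a whole had means of 1725.5 in parental cells and 10121.5 in TKO, a larger ratio than that of distal AP-1 peaks. The deposited lists had 3720, 5719, 27213 and 25876 peaks, and when each was cut to its 3720 peaks of highest fold enrichment, the ratio of summit reads to local background that the authors give, the distal AP-1 peaks numbered 183, 348, 120 and 113, a ratio of 0.439. The direction of the difference turned at equal length, where the peaks kept were also those of higher fold. All distal peaks then numbered 1000, 1554, 802 and 756 in the same order, so they too were fewer in TKO.

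As a share of distal peaks, the AP-1 letters were less frequent in TKO than in parental cells. The difference was -6.27 percentage points, with 20.5% ± 3.16 (SD, n = 2) in parental cells and 14.3% ± 2.19 in TKO, and the values of the cell lines did not overlap (exact permutation test, two-sided, p = 0.333). With each library left out in turn the difference ranged from -8.50 to -4.04 points, the latter without parental replicate 2. At equal list length the shares were 18.3%, 22.4%, 15.0% and 14.9%. The median GC content within 100 bp of the summit of distal peaks without the letters was 54.7%, 52.2%, 54.7% and 56.7% in the same order, and its part in the difference was not tested. Over 10 equal classes of distal peaks by fold, the share ranged from 13.0% to 24% in parental replicate 1, from 20.4% to 28.2% in parental replicate 2, from 13.8% to 17.2% in TKO replicate 1 and from 10.7% to 15.7% in TKO replicate 2, where the lowest value was in the bottom class and the highest in the class below the top.

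Peaks of the 4 lists that overlapped by at least 1 bp were merged into sites, and 2583 of 14038 sites with a distal peak held at least 1 distal AP-1 peak. Of these, 987 had a peak in both TKO lists and neither parental list, 917 in a single list, 225 in all 4 lists and 9 in both parental lists and neither TKO list. These classes made up 38.2%, 35.5%, 8.71% and 0.348% of the 2583 sites, and 32.3%, 54.5%, 4.38% and 0.148% of the other distal sites. A parental peak was present at 761 of the 2583 sites (29.5%), compared with 15.9% of the other distal sites. A site with peaks in more lists has more summits that can hold the letters, so these site shares do not compare like with like, and the comparisons below were made peak by peak within a library.

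**Figure D4:**
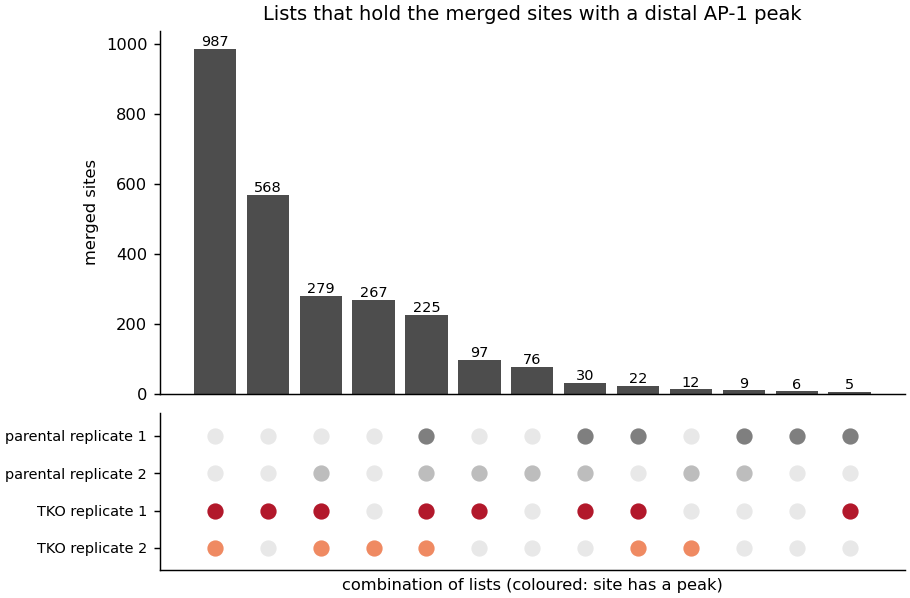
The number of merged sites with a distal AP-1 peak (bars, y axis) is plotted for each combination of lists (x axis), with coloured dots below for the libraries that have a peak in the site. The tallest bar, 987 sites, stands for both TKO lists alone, and the 225 sites of all 4 lists are in the fifth bar.

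Distal AP-1 peaks of TKO overlapped a parental peak more often than other distal peaks of the same library did. Of 1682 distal AP-1 peaks of TKO replicate 1, 23.3% overlapped a peak of at least 1 parental list, as did 19.1% of 8958 other distal peaks (Fisher's exact test, two-sided, adjusted p = 3.01e-04). In TKO replicate 2 the shares were 24.2% of 1221 and 17.1% of 8382 (Fisher's exact test, adjusted p = 2.79e-08). This definition was added after the data were seen, and p-values were adjusted over 16 overlap tests. The difference was larger for parental replicate 2, which was overlapped by 22.3% against 17.8% in TKO replicate 1 and by 23.1% against 15.9% in TKO replicate 2. For parental replicate 1 the shares were 9.51% against 8.67% (Fisher's exact test, adjusted p = 0.385) and 10.7% against 8.35% (adjusted p = 0.0200). With peaks matched on fold the mean difference was 4.82 points, it was 1.61 points without parental replicate 2, and at equal list length it turned to -1.71 points (the larger Fisher's exact p of the 2 TKO libraries was 0.261 and 0.919). Overlap with both parental lists, which is the stricter definition, was 8.50% against 7.39% in TKO replicate 1 (Fisher's exact p = 0.119) and 9.66% against 7.15% in TKO replicate 2 (Fisher's exact p = 0.00241).

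In the other direction, 80.3% of distal AP-1 peaks of parental replicate 1 and 85.3% of its other distal peaks overlapped both TKO lists (Fisher's exact p = 0.114). For parental replicate 2 these shares were 64.2% and 64.7% (Fisher's exact p = 0.840), so neither parental library passed 0.05. At equal list length the mean difference over the parental libraries was -8.18 points and passed in both. For overlap with at least 1 TKO list the shares were 92.3% against 96.5% in parental replicate 1 (Fisher's exact test, adjusted p = 0.0550) and 84.9% against 83.3% in parental replicate 2 (adjusted p = 0.529). The share found in the other library of the same cell line was 84.7% against 84.2% in parental replicate 1, 33.7% against 34.2% in parental replicate 2 and 60.9% against 61.1% in TKO replicate 1. It was 77.6% against 66.2% in TKO replicate 2 (Fisher's exact test, adjusted p = 9.69e-15), and the difference was 9.20 points with peaks matched on fold. At equal list length the mean difference over the 4 libraries turned from 2.78 to -2.02 points. Distal AP-1 peaks were slightly wider than other distal peaks in TKO, with medians of 301 against 291 bp and 317 against 297 bp, and the part of width in these overlaps was not tested.

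Enrichment of distal AP-1 peaks was close to that of other distal peaks. The authors' fold enrichment had a median of 5.05 against 5.17 in parental replicate 1, 4.99 against 5.11 in parental replicate 2, 5.09 against 4.97 in TKO replicate 1 and 5.49 against 5.22 in TKO replicate 2. The share above the median fold of all distal peaks of the library was 55.2% of distal AP-1 peaks and 49.2% of others in TKO replicate 2 (Fisher's exact p = 9.95e-05). It was 51.9% and 49.6% in TKO replicate 1 (Fisher's exact p = 0.0795), 47.0% and 50.7% in parental replicate 1 (Fisher's exact p = 0.414) and 47.7% and 50.7% in parental replicate 2 (Fisher's exact p = 0.228). At equal list length the mean difference over the TKO libraries turned from 4.15 to -5.31 points. The highest fold of a distal AP-1 peak was 11.3, 14.3, 21.1 and 20.2 in the same order.

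The 225 sites with a peak in all 4 lists allowed fold to be set side by side. Their median fold was 4.93 and 5.49 in parental replicates 1 and 2 and 8.58 and 7.65 in TKO replicates 1 and 2. The median ratio of a TKO to a parental library over the 4 pairs of libraries was 1.39 to 1.72, and fold was higher in TKO at 78.2% to 92.0% of the sites. At the 502 other distal sites of all 4 lists the ratio was 1.49 to 1.70, and at 1904 sites without a distal peak it was 1.86 to 2.02. Fold was higher in both TKO libraries than in both parental libraries at 161 of the 225 sites (71.6%), at 69.1% of the other distal sites of all 4 lists and at 82.9% of all 2631 such sites. Higher fold in TKO was thus shared with the other sites, and since fold was not scaled between libraries these ratios are a description. Summits moved between libraries within these sites by a median of 68 bp, and 48 of the 225 sites held the letters within 50 bp of a distal summit in every library. By annotation 139 of the sites were intronic, 77 intergenic and 9 exonic.

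Canonical E-boxes were less frequent at distal AP-1 peaks than at other distal peaks in 3 of the 4 libraries. CACGTG lay within 50 bp of the summit of 12.6% of distal AP-1 peaks and 25.7% of other distal peaks in parental replicate 1 (Fisher's exact test, adjusted p = 5.32e-04), 8.24% and 16.7% in parental replicate 2 (adjusted p = 2.94e-06) and 5.77% and 9.90% in TKO replicate 1 (adjusted p = 3.86e-07). The shares in TKO replicate 2 were 7.29% and 7.89% (Fisher's exact test, adjusted p = 0.664). All are Fisher's exact tests, two-sided, adjusted over 20 tests of 5 motifs in 4 libraries. Windows 1 kb downstream of distal summits held CACGTG in 1.43% to 1.65% of cases, so distal AP-1 peaks were still above that level. Median GC content was 52.7% at distal AP-1 peaks and 54.7% at other distal peaks in parental replicate 1, 52.2% at both in parental replicate 2, 53.2% and 54.7% in TKO replicate 1 and 56.2% and 56.7% in TKO replicate 2, and its part was not tested. The E-box became more frequent with enrichment in distal AP-1 peaks as well. From the lower through the middle to the upper tercile of fold it was found in 2.08%, 4.12% and 10.9% of them in TKO replicate 1 and in 3.74%, 6.44% and 10.7% in TKO replicate 2.

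**Figure D5:**
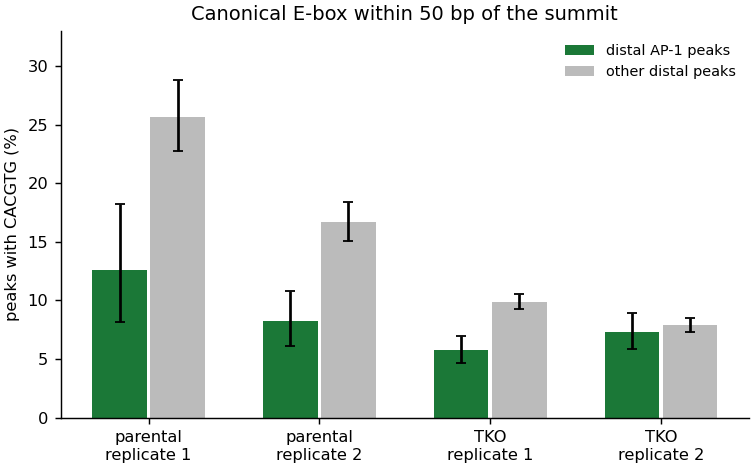
The share of peaks with CACGTG within 50 bp of the summit (%, y axis) is plotted for each library (x axis), with green bars for distal AP-1 peaks, grey bars for other distal peaks and exact 95% confidence intervals. The intervals are apart in both parental libraries and in TKO replicate 1 and overlap in TKO replicate 2, at 7.29% and 7.89%.

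The motifs of 4 other families of enhancer factors were counted in the same windows. TGTGGT, the core of the RUNX motif, was found near 13.4% of distal AP-1 summits and 20.6% of other distal summits in parental replicate 2 (Fisher's exact test, adjusted p = 5.32e-04) and near 12.2% and 14.7% in TKO replicate 1 (adjusted p = 0.0316), whereas in parental replicate 1 the shares were 15.8% and 17.5% and in TKO replicate 2 they were 11.2% and 12.53%. GGAATG, which TEAD proteins of the Hippo pathway bind and which can overlap the AP-1 letters, was found near 9.84% and 14.9%, 10.6% and 14.3%, 10.8% and 11.7%, and 9.83% and 9.33% in the 4 libraries, and no library passed the threshold (adjusted p = 0.193, 0.0680, 0.489 and 0.682 by Fisher's exact test). At distal AP-1 peaks 3, 3, 17 and 16 GGAATG matches overlapped the AP-1 letters. CGGAAG of the ETS family was found near 2.15% to 3.28% of distal AP-1 summits and TGTTTAC of the FOX family near 0.773% to 4.37%, with no adjusted p under 0.05. All motifs were searched on both strands, and windows 1 kb downstream of distal summits held TGTGGT in 7.50% to 8.17%, GGAATG in 5.20% to 5.59%, CGGAAG in 1.47% to 2.60% and TGTTTAC in 0.896% to 1.31%. Distal AP-1 peaks lay in gene bodies in 60.1%, 61.1%, 61.5% and 60.2% of cases and other distal peaks in 61.1%, 61.7%, 60.2% and 59.6%, with Fisher's exact p from 0.315 to 0.805.

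The strongest sites of all 4 lists had a higher fold in both TKO libraries than in both parental libraries at 7 of the 10 named here, beside 82.9% of all sites of 4 lists. The site 9.07 kb from the TSS of DCANP1 had a fold of 10.6 and 11.7 in the parental libraries and of 21.1 and 16.0 in TKO, with the AP-1 letters near the summit in every library. The site in an intron of TIMP2, which encodes an inhibitor of matrix metalloproteinases, had 10.1 and 12.2 in the parental libraries and 15.4 and 16.1 in TKO, and its AP-1 letters, near the summit in parental replicate 2 alone, stand 4 bases from an E-box in the sequence printed above. At CD58, a cell adhesion ligand, the intronic site had 10.7 and 9.46 in the parental libraries and 17.1 and 13.6 in TKO, with the letters near the summit in all libraries but TKO replicate 2. The site in an intron of EPHX1, which encodes microsomal epoxide hydrolase, had 11.3 and 14.3 in the parental libraries and 13.2 and 11.9 in TKO, so its values overlapped between the cell lines, and it had the letters near the summit in every library.

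A further 5 sites were present in all 4 lists. The intergenic site at chr19:2059223-2060236, nearest to MKNK2, a kinase of the translation factor eIF4E, had a fold of 7.48 and 10.2 in the parental libraries and of 23.3 and 27.4 in TKO, where the letters were not within 50 bp of the summit. An intronic site of EGFR, the epidermal growth factor receptor, at chr7:55141596-55142155 had 7.70 and 11.5 in the parental libraries and 18.3 and 14.3 in TKO, with the letters near the summit in parental replicate 2 alone. The site at chr19:45958895-45959764 is 11.9 kb upstream of FOSB, a FOS family gene, inside an intron of ERCC1, and had 7.37 and 6.50 in the parental libraries and 16.4 and 17.6 in TKO, with the letters near the summit in parental replicate 2 and TKO replicate 1. An intergenic site 207.7 kb from SPP2 had 8.31 and 7.81 in the parental libraries and 18.7 and 19.9 in TKO, with the letters near the summit in all libraries but TKO replicate 1. The groups did not overlap at these 4 sites. They overlapped at an intronic site of GALNT5, an enzyme of mucin-type glycosylation, with 8.97 and 8.69 in the parental libraries and 14.3 and 8.52 in TKO, and there the letters were near the summit in the parental libraries alone.

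The remaining site of the 10 lies 439.3 kb downstream of MYC itself, in an intron of the long non-coding RNA gene PVT1. Its fold was 8.07 and 9.32 in the parental libraries and 10.7 and 8.18 in TKO, so the cell lines overlapped, and the letters were near the summit in the parental libraries alone. MYC was the nearest protein-coding gene of 8 distal AP-1 sites, 161.8 to 928.5 kb from its TSS, of which 2 had a peak in all 4 lists and 5 had at least 1 parental peak.

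Of the 987 sites with a peak in both TKO lists and neither parental list, the 8 with the highest mean percentile had a fold of 9.72 to 16.7. The site in an intron of TBC1D22A, printed above, had 13.4 in TKO replicate 1 and 12.3 in replicate 2. A site 52.0 kb upstream of AMOTL2, an angiomotin gene induced by YAP and TEAD, had 11.9 and 13.8 and holds both the AP-1 letters and an E-box. Sites nearest to IL17REL (in an intron of TTLL8), UACA (intergenic, 209.4 kb away) and SIK1 (intergenic, 86.2 kb away), the last a salt-inducible kinase gene, had 11 and 14.5, 15.5 and 10.1, and 12.2 and 11.3. A site in an intron of TMEM132D had 10.8 and 16.7, a site in an exon of NAXD, which repairs damaged NADH, had 11 and 14.4, and both also held an E-box. A site in an intron of AGAP1, a regulator of ARF GTPases, had 9.72 and 14.3. The letters were near the summit in both TKO libraries at the AMOTL2, UACA and NAXD sites. They were near it in replicate 1 alone at TBC1D22A, SIK1 and AGAP1, and in replicate 2 alone at IL17REL and TMEM132D. No peak was listed at these 8 sites in parental cells, which does not show that Myc was absent, since a list ends at its significance threshold.

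Far fewer sites, 9, had a peak in both parental lists and neither TKO list. The other distal sites were uneven as well, with 17 such sites beside 3702 of TKO alone, and the parental lists were shorter. The strongest of the 9 lay 207.1 kb upstream of DCBLD2, with a fold of 6.75 in parental replicate 1 and 11 in replicate 2. Others lay in the gene LINC00330 nearest to NUFIP1, with 6.37 and 8.04, in an intron of GALNT7, with 8.39 and 5.84, and 682.1 kb upstream of SOX9, a transcription factor of stem and progenitor cells, with 5.16 and 6.31. At the SOX9 site the letters were near the summit in parental replicate 2 alone.

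The nearest protein-coding genes of the 2583 sites were 1867 of 20149 genes (9.27%), at a median distance of 33.4 kb, and 555 sites (21.5%) were over 100 kb from such a TSS. Of these genes, 1384 had 1 site, 337 had 2 and 146 had 3 or more. ZMIZ1, a coactivator gene, had the most, with 11 sites 12.9 to 289.4 kb from its TSS, of which 2 were in all 4 lists and 6 in TKO alone. After MYC, SOX9 had 7 sites, none in all 4 lists and 4 in TKO alone. DUSP4, a phosphatase gene for MAP kinases, NFATC2, SIK1, TOMM20 and ZNF469 had 6 each. Other distal sites nearest to ZMIZ1, MYC and SOX9 numbered 19, 17 and 10. Nearest genes are assigned by distance along the genome.

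Of the 2583 sites, 469 (18.2%) stood in runs with a neighbour at most 12468 bp away, and 30 runs held 3 or more sites. The same share was not taken for other distal sites. The only run of 4 spanned 24.5 kb nearest to INTS1 and MAFK (chr7:1552764-1577237), with 2 intronic sites 3.32 and 6.63 kb downstream of the MAFK TSS. MAFK is a small MAF gene whose protein is a relative of the AP-1 factors, and the run had no parental peak. Its fold values were 6.75, 4.48 and 4.21 in TKO replicate 1 and 9.00, 6.72 and 7.03 in replicate 2 at 3 of the sites, and 4.45 in replicate 2 alone at the other. The densest run of 3 sites covered 3.05 kb beside PPL, the gene of the desmosomal protein periplakin (chr16:4993153-4996206), with fold from 6.62 to 9.32 in TKO and 5.64 and 4.65 at the sites with a parental peak. The next, in an intron of CREB3L1 over 3.68 kb (chr11:46315185-46318866), had a middle site with a peak in all 4 lists, at 5.05 and 6.27 in the parental libraries and 10.6 and 11.5 in TKO.

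Gene lists picked for AP-1 and for breast cancer cell states were compared with the 9.27% of all protein-coding genes, as a description. The AP-1 factor list had 5 of 17 genes (29.4%) nearest to a distal AP-1 site. FOSL2 had 4 sites, of which the intergenic one 31.7 kb upstream had a fold of 7.14 and 5.99 in the parental libraries and of 6.92 and 7.47 in TKO. JUN had 4 sites, 97.6 to 231.8 kb upstream and none with a parental peak. Only the one 97.6 kb upstream had a peak in both TKO libraries, and each of the others had a peak in a single TKO library. JUND had 1 site, 19.6 kb upstream, with 3.28 in parental replicate 2 and 4.77 and 7.97 in TKO. FOSB and MAFK are described above.

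The AP-1 target list had 9 of 23 genes (39.1%), among them PLAU, CD44, CXCL8, VEGFA, CCND1, DUSP1, EGFR and TNC. The site 16.3 kb upstream of PLAU, the gene of urokinase, was in all 4 lists, with a fold of 4.84 and 6.09 in the parental libraries and 5.77 and 6.13 in TKO. The TEAD target list had 9 of 22 (40.9%), of which only the gene of tissue factor, F3, had a site in all 4 lists, with 4.04 and 3.63 in the parental libraries and 5.34 and 5.35 in TKO.

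The basal and mesenchymal list had 6 of 22 genes (27.3%), among them ZEB2, SNAI2, CD44, EGFR and TGFBI, and the luminal list had 5 of 20 (25%), GATA3, SPDEF, ELF3, TFF3 and CLDN4. The site of ZEB2 lay 139.5 kb from its TSS, and those of GATA3 lay 251.6 and 1201 kb away. With sites limited to 100 kb these lists had 5 and 4 genes, without ZEB2 and GATA3, beside 7.83% of all protein-coding genes. The site 5.00 kb upstream of the tight junction gene CLDN4 was the strongest of the luminal list, with 10.7 and 10.4 in the TKO libraries and no parental peak. The Myc target list had 5 of 20 (25%), ODC1, LDHA, ENO1, PKM and TFRC, and the site in an intron of the glycolytic gene ENO1 was in all 4 lists, with 3.95 and 4.82 in the parental libraries and 5.27 and 3.97 in TKO. SNAI2, TGFBI, TFF3, PKM, TFRC and, in the TEAD target list, NT5E were each counted through a single site with a peak in 1 TKO library alone. All 6 lists were above 9.27%, and they were also above the 26.2% of all genes that are nearest to a distal site without the letters, at 52.9%, 52.2%, 86.4%, 72.7%, 40% and 30% in the order given, so the excess was not particular to sites with the AP-1 letters. With genes of any type allowed as the nearest gene, list entries with a site fell from 39 to 23, and the share of all protein-coding genes fell from 9.27% to 4.17%.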

How the data were processed

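Myc ChIP-seq was analysed in 4 libraries, 2 of parental cells and 2 of TKO, grouped by sample title. The 2 input samples had no file used here. Per the labels and the authors' methods, reads were aligned to hg19 with Novoalign 3.08.02 and peaks were called for each library with MACS2 2.1.1.20160309. The deposited lists give, for each peak, a fold enrichment (a ratio), a −log10 p-value, a −log10 q-value and a score. The lists end at a −log10 q-value of 2.03 to 2.07, and 11 mitochondrial peaks were left out. The authors' fold was used to rank peaks within a list and, as a description, side by side at shared sites.

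GRCh37 and GENCODE v44 lifted to it gave sequence, 110213 start sites and 20149 protein-coding genes. Distal AP-1 peaks were compared with other distal peaks within a library by Fisher's exact test, and cell lines by exact permutation of library values. Shares have exact Clopper-Pearson 95% intervals. Matching on fold used 10 strata. Named were the 10 sites of all 4 lists, the 8 of TKO alone and the 5 of parental cells alone with the highest mean percentile by fold, the 5 such sites with an E-box, the 6 genes with most sites (ties added), the 3 densest runs, and list genes with a site in all 4 lists. Some named items are not reported here. Of further list genes, examples were chosen after their values were seen. Members and lists were chosen with earlier results of these data known. Alternatives were other list lengths, thresholds, distances, windows and overlaps, and each library left out. Tests were run in scipy 1.17.1 under Python 3.11.15, sequence was read with pysam 0.24.0, tables were handled in pandas 2.3.3 and numpy 2.4.6, and figures were drawn with matplotlib 3.10.9. The steps were tested on simulated data.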

Additional observations from a re-analysis of the deposited data

Results flagged for a closer look

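In 3 comparisons of distal AP-1 peaks with other distal peaks, both libraries of one cell line differed in one direction and both libraries of the other in the opposite direction. The difference between the cell lines was not tested, and the values are in percentage points for parental replicates 1 and 2 and then TKO replicates 1 and 2. Overlap with both lists of the other cell line differed by -4.98, -0.554, 1.11 and 2.52. The share above the median fold of the library's distal peaks differed by -3.68, -2.99, 2.34 and 5.96. The share in gene bodies differed by -0.968, -0.590, 1.33 and 0.581.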

How the results depend on the processing

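Values are TKO over parental cells for the number of distal AP-1 peaks and otherwise percentage points, as means over libraries. The cause of the shifts was not tested. The lower AP-1 share of distal peaks in TKO, the excess over flanking windows and the flanking-base difference kept their direction under every alternative run. Lists of the 3720 peaks of highest fold moved the number ratio to 0.439 and turned the overlap with the other replicate to -2.02, that of TKO peaks with at least 1 parental list to -1.71, strength in TKO to -5.31, TEAD to 1.09 and FOX to 0.520, while overlap of parental peaks with both TKO lists became -8.18 and passed 0.05. A motif window of 100 bp brought past the threshold the E-box difference in TKO (-3.24), ETS (-1.92), overlap with both parental lists (2.46) and strength in TKO (4.67). A window of 25 bp turned FOX to 0.280 and left the E-box in parental cells at -6.79 without a call. A fold of at least 5 turned FOX to 9.13e-05 and left overlap with at least 1 parental list at 2.63 without a call. Distal beyond 1 kb gave TEAD 0.289, gene bodies -0.396 and overlap with both parental lists 2.21, now called, and beyond 10 kb gene bodies were -0.265. Protein-coding TSSs gave TEAD 0.403 and ETS -1.80, now called. Summits within 100 bp gave 2.24 for overlap with both parental lists, now called. The nearest gene of any type gave 23 list entries.

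Leaving out each library gave 2.60 to 7.93 for the number ratio, -8.50 to -4.04 for the AP-1 share, -4.13 to -0.597 for the E-box in TKO, -1.15 to -0.765 for ETS, -2.45 to -1.31 for RUNX, -0.893 to 0.498 for TEAD, 1.61 to 7.09 for at least 1 parental list, 1.11 to 5.85 for both parental lists and 2.34 to 5.96 for strength in TKO. With the replicate numbers as a block, the number ratio was 4.48 and the share difference -6.27 (exact p = 0.500). Deviations of same-numbered libraries correlated at -0.0233 over 225 sites. With 2 libraries per cell line this value cannot show whether same-numbered libraries were made together. The labels do not say so either, and the numbers were not taken to pair the libraries.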
